A study of Flaveria robusta and Flaveria sonorensis and Flaveria ramosissima with 24 samples.

Results

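The response of leaf transcripts to low CO2 was compared between F. ramosissima and F. sonorensis, both C3-C4 intermediates of the genus Flaveria in the daisy family. The comparison used 12 of the 24 RNA-seq libraries of the series, those of these 2 species, and asked for each gene whether its change at low CO2 in F. ramosissima differed from its change in F. sonorensis. Of the 29562 genes in the table, 10473 had a mean transcript abundance of at least 1 TPM (a unit that gives each gene its length-corrected share of a library's transcripts) in each of the 2 species and were tested. A further 5426 genes reached this level in F. ramosissima alone and 3963 in F. sonorensis alone.

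Each species had 3 libraries from plants held for 2 weeks at low CO2 and 3 from plants in control air, made from mature leaves that had just expanded. The CO2 settings in the labels are 100 for low CO2 and 380 for control, and their stated unit, µmol m-2 s-1, is one of light flux, so the concentration meant is left as labelled. The labels give all 4 groups the same growth chamber conditions and name no introduced allele. The 12 other libraries came from F. robusta, a C3 species, and F. trinervia, a C4 species, treated in the same way. Whether replicate libraries came from separate plants is not stated, so p-values measure only the spread between these libraries.

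C3 plants fix CO2 directly with Rubisco in the mesophyll, and when CO2 is scarce Rubisco takes up more oxygen and photorespiration increases. C3-C4 intermediates move photorespiratory glycine from the mesophyll to the bundle sheath, where its decarboxylation releases CO2 close to Rubisco, and some of them also run a partial C4 cycle. C4 plants concentrate CO2 in the bundle sheath by fixing it first into C4 acids in the mesophyll. The genes of the deposited table carry serial identifiers that the files do not pair with gene names, so genes are described here by their levels and not by function, and the leaf label was not checked against marker genes.

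Fewer genes passed the test of their own response in F. ramosissima than in F. sonorensis at the same adjusted p. In F. ramosissima 23 genes rose (0.22% of the genes tested) and 58 fell (0.554%), whereas in F. sonorensis 517 rose (4.94%) and 1739 fell (16.6%), by limma with a Benjamini-Hochberg adjusted p below 0.05. The change was under 0.5 on the log2(TPM + 1) scale in 87.9% of genes in F. ramosissima, against 65.4% in F. sonorensis. The median residual SD between replicates was 0.271 in F. ramosissima and 0.233 in F. sonorensis, and the fit used 1 estimate of the spread for both. With a spread weight for each species 49 genes passed in F. ramosissima and 2726 in F. sonorensis. With each species fitted alone 33 passed in F. ramosissima and 2360 in F. sonorensis. The part of the spread in the gap between the species was not tested. Across the 10473 genes the responses of the 2 species, which share no library, had a Pearson r of 0.38 and a Spearman rho of 0.36, given as a description because genes of a library are not independent.

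The direction of these changes moved with the scaling of the libraries. On the TPM as deposited the median response over all genes was -0.01 in F. ramosissima and -0.18 in F. sonorensis. The median difference between the species was 0.17, with an SE of 0.157 from the spread between libraries. With 1 library left out it ran from 0.0583 to 0.284. After median-of-ratios scaling, which brings the typical gene to the same level in every library, the median difference was -0.00450. F. ramosissima then had 70 genes that rose and 75 that fell, and F. sonorensis had 1219 that rose and 962 that fell. The 100 most abundant genes took 46.9% ± 5.01 of the summed TPM in F. ramosissima at low CO2 and 47.5% ± 2.74 in F. ramosissima in control air (SD, n = 3 each, two-sided exact permutation p = 1). In F. sonorensis the share was 48.0% ± 1.05 at low CO2 and 41.9% ± 4.54 in control air (exact permutation p = 0.1, the smallest that 3 against 3 libraries allow). F. sonorensis control replicate 1 stood apart from its group at 36.7%, against 45.0% and 44.0% in the other F. sonorensis controls, and 331 genes had a difference of response without it, against 276 with it. The part of this share in the results was not tested.

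The difference of response itself, F. ramosissima minus F. sonorensis, passed the test in 276 genes. It was positive in 213 (2.03% of the genes tested) and negative in 63 (0.602%), and 1836 genes had an unadjusted p below 0.05. Of the 276 genes, 267 differed by at least 2-fold, and the smallest difference among them was 0.93 on the log2(TPM + 1) scale. After median-of-ratios scaling the test passed 160 genes, 84 with a positive (0.802%) and 76 with a negative difference (0.726%), so that positive differences made up 77.2% of the calls on the deposited values and 52.5% after scaling. Both scalings shared 126 genes, none of them with opposite signs. Quantile normalization gave 109 positive and 147 negative differences, and rescaling without the 100 most abundant genes of each species gave 148 and 125.

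The number of genes that passed rested on single libraries. It was 49 without F. ramosissima low CO2 replicate 3, 168 without F. ramosissima low CO2 replicate 2, 180 without F. ramosissima control replicate 1 and 146 without F. ramosissima control replicate 2. It was 89 without F. sonorensis low CO2 replicate 1, 175 without F. sonorensis low CO2 replicate 3 and 113 without F. sonorensis control replicate 2. Leaving out F. sonorensis low CO2 replicate 2 gave 203, and F. sonorensis control replicate 3 gave 204. The number was higher without F. ramosissima low CO2 replicate 1 (336), F. ramosissima control replicate 3 (302) or F. sonorensis control replicate 1 (331). With each of the 12 libraries left out in turn, 38 of the 213 positive and 11 of the 63 negative differences passed every time, and the genes described one by one below were in the main taken from these. Without F. ramosissima low CO2 replicate 3 the genes that passed in F. ramosissima itself numbered 6 and not 81.

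**Figure D1:**
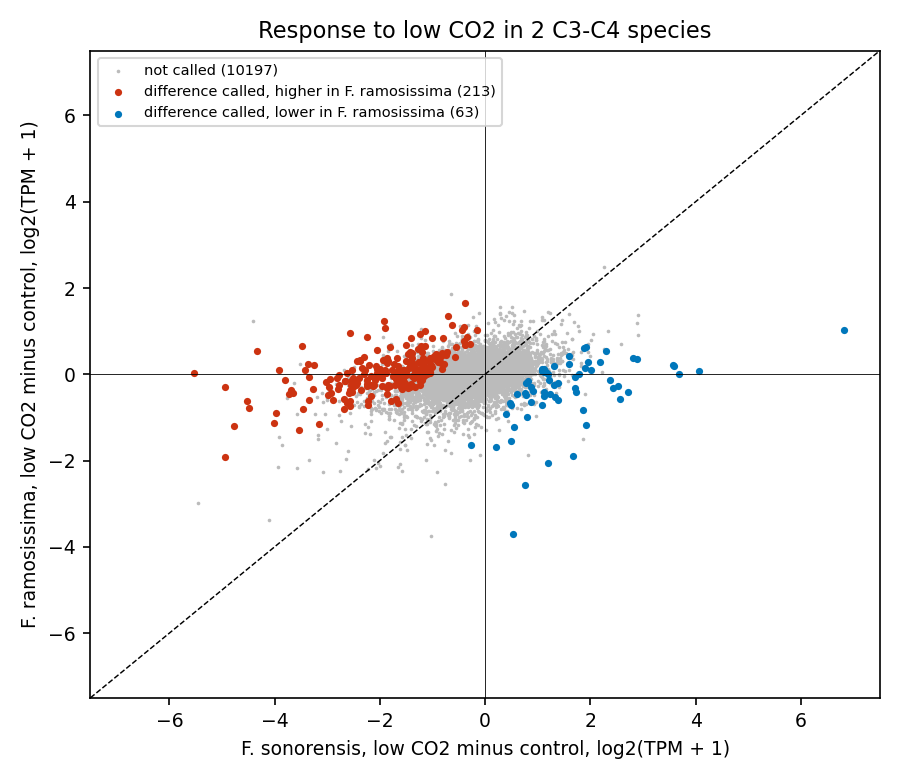
Each point is 1 of the 10473 genes tested, placed by its response in F. sonorensis (horizontal axis) and in F. ramosissima (vertical axis), both as low CO2 minus control on the log2(TPM + 1) scale. Red points mark the 213 genes and blue points the 63 genes whose response was higher or lower in F. ramosissima, and the dashed line marks equal responses. In 200 of these 276 genes the absolute response in F. ramosissima was under 0.5, a smaller share than the 87.9% of all genes tested.

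In most genes with a difference only F. sonorensis passed the test of its own response. This held in 253 of the 276 genes, of which 201 fell and 52 rose there. Both species passed in 3 genes, F. ramosissima alone in 8 and neither in 12. Over all 10473 genes tested, 2256 passed in F. sonorensis and 81 in F. ramosissima. A gene that passed in F. sonorensis alone could also have changed in F. ramosissima, where passing needed a lower unadjusted p. The response was larger in F. sonorensis, in absolute size, in 252 of the 276 genes, and it was under 0.5 in F. ramosissima in 200, a smaller share than the 87.9% of all genes tested. Since the difference contains both responses, these counts describe the genes chosen and were not tested.

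The 213 genes with a positive difference were mainly genes that fell in F. sonorensis. Their median response was 0.04 in F. ramosissima and -1.69 in F. sonorensis, and their differences ran from 0.93 to 5.57 with a median of 1.84. They were genes of moderate level, with a median of 6.21 TPM in F. ramosissima and 15.4 TPM in F. sonorensis, against 6.73 TPM in F. ramosissima and 16.3 TPM in F. sonorensis over all genes tested. In 91 of them the mean of F. ramosissima was under 5 TPM, where the log2(TPM + 1) scale understates a change, and 113 had at least 5 TPM in both species. For 212 of the 213, all 9 low CO2 minus control differences between single libraries of F. ramosissima lay above all 9 of F. sonorensis, a separation that 6.55% of all genes tested showed. Median-of-ratios scaling kept 81 of them.

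The 63 genes with a negative difference were mainly genes that rose in F. sonorensis. The median response was -0.28 in F. ramosissima and 1.30 in F. sonorensis, and the differences ran from -5.79 to -0.96 with a median of -1.77. Their median level was 15.7 TPM in F. ramosissima and 19.2 TPM in F. sonorensis. In all 63 the 9 differences of F. ramosissima lay below the 9 of F. sonorensis, against 2.64% of all genes tested. These genes too were chosen by this contrast, so the separation only describes them. Median-of-ratios scaling kept 45 of them.

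The largest positive difference was that of Gene05621. Its level was 10.8, 22.4 and 13.7 TPM in F. ramosissima at low CO2 and 13.1, 14.3 and 16.5 TPM in F. ramosissima in control air, with overlapping values. In F. sonorensis it was 1.29, 1.12 and 1.55 TPM at low CO2 and 136, 124 and 71.9 TPM in control air, so that every low CO2 library lay far below every control. The response was 0.03 in F. ramosissima (adjusted p = 0.986) and -5.54 in F. sonorensis (adjusted p = 1.92e-07), and the difference was 5.57 ± 0.382 (SE, adjusted p = 2.53e-05). In control air this gene was thus present in both species, and the F. sonorensis leaves at low CO2 were the only 1 of the 4 groups near 1 TPM.

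Gene00090 had the second largest positive difference among the genes that passed under both scalings and with every library left out. In F. ramosissima it was close to the floor of the measurement, with 1.39, 0.17 and 2.99 TPM at low CO2 and 0.76, 0.53 and 0.36 TPM in control air. In F. sonorensis it had 10.3, 10.3 and 19.0 TPM at low CO2 and 123, 781 and 218 TPM in control air, which varied widely among the controls but did not overlap. The difference of response was 4.88 ± 0.800 (SE, adjusted p = 0.0113), with a response of 0.54 in F. ramosissima (adjusted p = 0.825) and -4.34 in F. sonorensis (adjusted p = 3.58e-04). At such a level a fall in F. ramosissima could not have been measured.

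The largest negative difference, also the largest in absolute size, was that of Gene01199. It was abundant in F. ramosissima under both conditions, with 2411, 1341 and 1804 TPM at low CO2 and 1490, 609 and 765 TPM in control air, where the values of the 2 conditions overlapped. F. sonorensis had 2045, 1614 and 2750 TPM at low CO2 and 18.4, 15.0 and 19.4 TPM in control air. At low CO2 the levels of both species overlapped, and F. sonorensis in control air was the group that stood apart. The difference of response was -5.79 ± 0.443 (SE, adjusted p = 4.59e-05), made of 1.02 in F. ramosissima (adjusted p = 0.200) and 6.82 in F. sonorensis (adjusted p = 1.79e-07).

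Gene04344 was the only gene of these 4 in which F. ramosissima passed the test of its own response. It fell there to 5.24, 1.98 and 2.90 TPM at low CO2, against 33.8, 77.4 and 57.2 TPM in control air. In F. sonorensis it had 3.78, 11.3 and 3.64 TPM at low CO2 and 2.93, 3.30 and 4.37 TPM in control air, which overlapped. The difference was -4.23 ± 0.558 (SE, adjusted p = 0.00428), with a response of -3.70 in F. ramosissima (adjusted p = 0.00152) and 0.53 in F. sonorensis (adjusted p = 0.367). In control air only F. ramosissima carried it above 30 TPM.

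**Figure D2:**
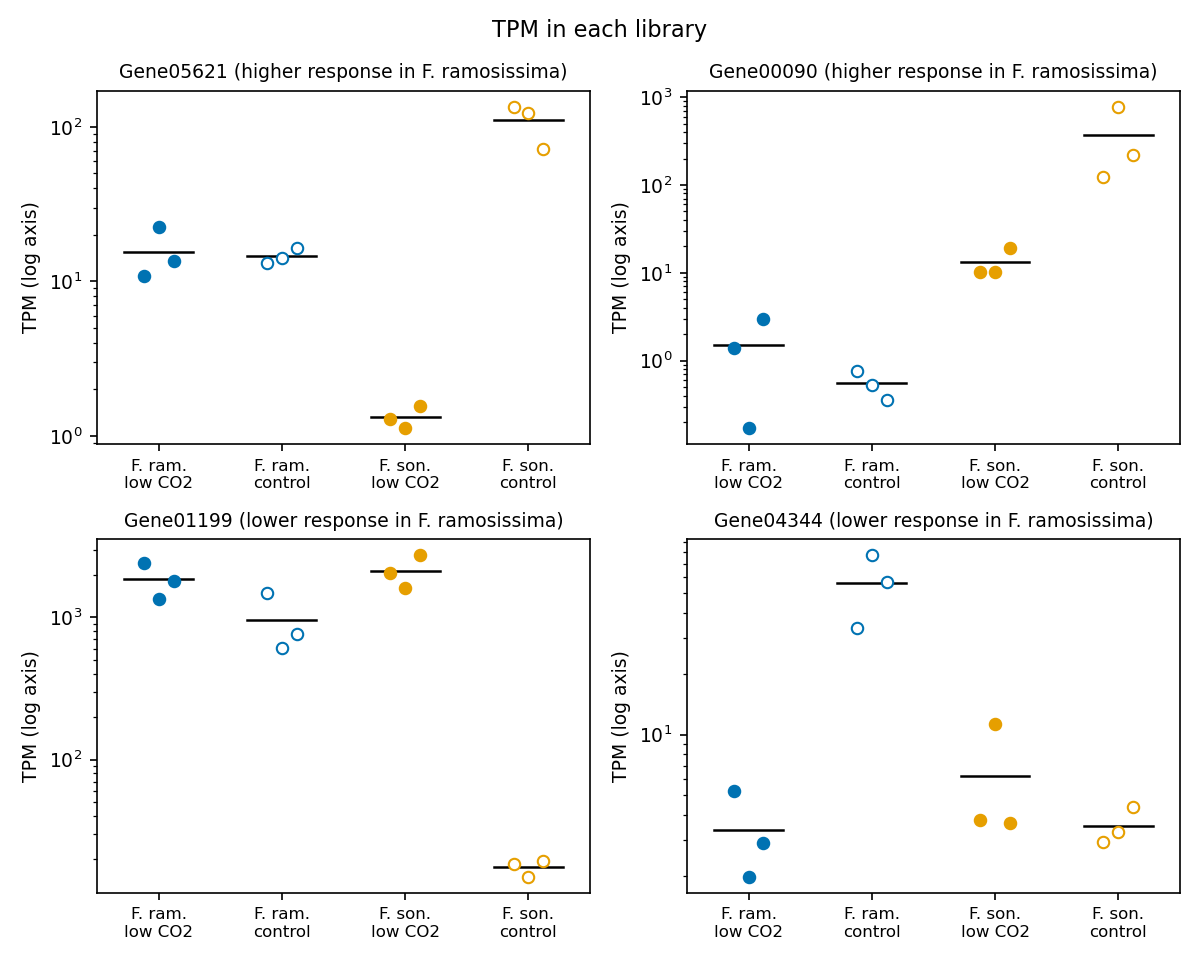
TPM of Gene05621, Gene00090, Gene01199 and Gene04344 in each of the 12 libraries on a log axis, with filled points for low CO2, open points for control and a line at the mean of the 3 libraries of a group. In the first 3 genes the 2 groups of F. sonorensis lie apart while those of F. ramosissima overlap, and in Gene04344 the reverse is seen.

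Among the 36 genes that met the same conditions as these, which include passing with every library left out, the next 8 positive differences ran from 3.11 to 4.12 (adjusted p 0.00216 to 0.0130). In none of these 8 genes did F. ramosissima pass its own test, with responses between -0.62 and 0.86, while the F. sonorensis responses lay between -4.52 and -2.25. One of them was 18.1, 28.9 and 24.2 TPM in F. ramosissima at low CO2 and 22.8, 31.0 and 20.8 TPM in F. ramosissima in control air, against 26.6, 17.5 and 43.2 TPM at low CO2 and 338, 230 and 296 TPM in control air in F. sonorensis. This gene was thus at a like level in 3 of the 4 groups and high in the F. sonorensis controls. Another was far more abundant in F. ramosissima, with 199, 301 and 285 TPM at low CO2 and 132, 148 and 145 TPM in control air, than in F. sonorensis, with 0.59, 0 and 0 TPM at low CO2 and 7.02, 3.79 and 3.44 TPM in control air. Here the groups of both species were apart, upwards at low CO2 in F. ramosissima and downwards in F. sonorensis. However, the response of 0.86 in F. ramosissima did not pass its test. In F. sonorensis this gene averaged 0.197 TPM at low CO2 and 4.75 TPM in control air. It thus reached the limit of 1 TPM in that species only through the controls.

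Of the 11 genes that met these conditions with a negative difference, the next 8 ran from -3.68 to -1.53 (adjusted p 0.00226 to 0.0110), with F. sonorensis responses between 0.80 and 3.69. F. ramosissima passed its own test in 1 of these genes. An abundant gene among them had 2530, 1882 and 2068 TPM in F. ramosissima at low CO2 and 3122, 2185 and 1427 TPM in F. ramosissima in control air, against 1500, 1592 and 1669 TPM at low CO2 and 60.7, 202 and 148 TPM in control air in F. sonorensis. Its difference was -3.68 ± 0.517 (SE, adjusted p = 0.00650). As with Gene01199, the F. sonorensis controls were the only low group. A gene of middle level had 34.5, 29.0 and 33.3 TPM in F. ramosissima at low CO2 and 34.7, 42.0 and 38.3 TPM in F. ramosissima in control air, against 99.7, 98.9 and 72.9 TPM at low CO2 and 30.8, 36.6 and 40.5 TPM in control air in F. sonorensis. The 2 species thus had like levels in control air and parted at low CO2.

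The 276 genes came from the whole range of abundance. Among the 96 tested genes with a mean of at least 1000 TPM over the 12 libraries, no difference was positive and 4 were negative (4.17%), and 3 of the 4 remained after median-of-ratios scaling. Between 100 and 1000 TPM, 12 of 856 genes had a positive (1.4%) and 6 a negative difference (0.701%), and 7 and 5 after scaling. Between 10 and 100 TPM the numbers were 111 (2.18%) and 36 (0.708%) of 5086 genes, and 44 and 48 after scaling. Under 10 TPM they were 90 (2.03%) and 17 (0.383%) of 4435 genes, and 33 and 20 after scaling. The shares were not tested against each other, and that of the most abundant class rests on 4 genes.

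All 4 abundant genes rose in F. sonorensis. Besides Gene01199 and the gene at 2530, 1882 and 2068 TPM, 1 had 2479, 2665 and 2620 TPM in F. ramosissima at low CO2 and 1934, 2627 and 2074 TPM in F. ramosissima in control air, against 597, 1027 and 745 TPM at low CO2 and 221, 247 and 297 TPM in control air in F. sonorensis. Its difference was -1.36 (adjusted p = 0.0249) and passed in 9 of the 12 fits that left out a library. The last had 1620, 1766 and 1632 TPM in F. ramosissima at low CO2 and 1953, 1933 and 1855 TPM in F. ramosissima in control air, against 4963, 5629 and 4564 TPM at low CO2 and 2731, 3134 and 2980 TPM in control air in F. sonorensis. Its difference was -0.97 (adjusted p = 0.0148), and its adjusted p was 0.0505 after median-of-ratios scaling.

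In 2 genes both species passed with opposite signs, and both of these differences passed under median-of-ratios scaling and with each library left out. One rose in F. ramosissima, with 11.6, 10.6 and 13.2 TPM at low CO2 and 3.61, 4.69 and 6.35 TPM in control air, and fell in F. sonorensis, with 2.37, 1.40 and 2.56 TPM at low CO2 and 3.64, 3.86 and 3.65 TPM in control air. The responses were 1.14 in F. ramosissima (adjusted p = 0.0212) and -0.62 in F. sonorensis (adjusted p = 0.0466), and the difference was 1.77 ± 0.289 (SE, adjusted p = 0.0113). The other fell in F. ramosissima, with 225, 226 and 204 TPM at low CO2 and 392, 513 and 407 TPM in control air, and rose in F. sonorensis, with 1035, 1343 and 955 TPM at low CO2 and 504, 682 and 727 TPM in control air. Its responses were -0.99 in F. ramosissima (adjusted p = 0.0268) and 0.80 in F. sonorensis (adjusted p = 0.00916), and the difference was -1.80 ± 0.260 (SE, adjusted p = 0.00686).

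F. ramosissima alone passed in 8 genes with a difference, of which 6 fell and 2 rose there. Besides Gene04344, a falling gene averaged 4.08 ± 1.28 TPM in F. ramosissima at low CO2 and 37.7 ± 35.6 TPM in F. ramosissima in control air, against 5.13 ± 0.593 TPM at low CO2 and 2.62 ± 0.531 TPM in control air in F. sonorensis (SD, n = 3 each). Its difference was -3.34 ± 0.629 (SE, adjusted p = 0.0179), and the controls of F. ramosissima varied widely. The 2 rising genes had differences of 1.19 and 2.04, and their adjusted p was 0.0505 and 0.114 after median-of-ratios scaling. In 1 further gene both species fell and F. sonorensis fell more, with 12.8, 30.6 and 20.7 TPM at low CO2 and 84.8, 79.9 and 73.7 TPM in control air in F. ramosissima, against 10.5, 23.9 and 12.5 TPM at low CO2 and 302, 861 and 435 TPM in control air in F. sonorensis.

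Some genes moved the same way in both species. Of the genes that passed in each species, 12 rose in both, with a median of 1.28 in F. ramosissima and 0.97 in F. sonorensis, and 40 fell in both, with a median of -1.57 in F. ramosissima and -1.53 in F. sonorensis. Passing needed a larger response in F. ramosissima, so the medians of the 2 species are not to be compared. The smallest rise among the 12 was 0.86 in F. ramosissima and 0.50 in F. sonorensis. The smallest fall among the 40 was -0.85 in F. ramosissima and -0.58 in F. sonorensis. All 12 risers and 28 of the 40 fallers passed in both species after median-of-ratios scaling as well. The 95% interval of the difference lay within 2-fold for 6 of the 12 and 15 of the 40, and for the others a like response was not shown to that precision.

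The largest shared rise was that of a gene with 966, 1765 and 1762 TPM in F. ramosissima at low CO2 and 371, 192 and 232 TPM in F. ramosissima in control air, against 1178, 1464 and 972 TPM at low CO2 and 284, 227 and 236 TPM in control air in F. sonorensis. No low CO2 library overlapped a control in either species, and the levels of the 2 species overlapped within each condition. The response was 2.50 in F. ramosissima and 2.26 in F. sonorensis, with a difference of 0.24 (95% interval -0.60 to 1.08). The largest shared fall, by its size in F. ramosissima, was that of a gene with 5.82, 5.34 and 7.04 TPM in F. ramosissima at low CO2 and 38.5, 120 and 79.8 TPM in F. ramosissima in control air, against 51.8, 25.2 and 39.3 TPM at low CO2 and 535, 696 and 771 TPM in control air in F. sonorensis. The response was -3.37 in F. ramosissima and -4.11 in F. sonorensis, with a difference of 0.74 (95% interval -0.34 to 1.82).

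Genes that moved in F. sonorensis had, at the median, a small response of the same sign in F. ramosissima. Among the 517 genes that rose in F. sonorensis the median response of F. ramosissima was 0.23, and 76.8% lay above 0, against 47.8% of all genes tested. Among the 1739 that fell in F. sonorensis it was -0.22, and 75.7% lay below 0, against 52.2% of all genes tested. When both the genes and the responses were taken after median-of-ratios scaling, the medians were 0.23 and -0.20, with 82.1% above 0 and 71.9% below 0, against 56.4% and 43.6% of all genes. By size of the F. sonorensis response, the F. ramosissima median was -0.43 for the 187 genes at -2 or lower, -0.25 for the 824 genes from -2 to -1, 0.30 for the 184 genes from 1 to 2 and 0.36 for the 25 genes at 2 or higher. Classes cut on one response place the median of that response far from 0 by construction, so the gap to the other species in such a class is no result. Cut on the F. ramosissima response instead, the F. ramosissima median was -1.24 and the F. sonorensis median -1.02 for the 129 genes from -2 to -1, and 1.24 and 0.45 for the 58 genes from 1 to 2.

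**Figure D3:**
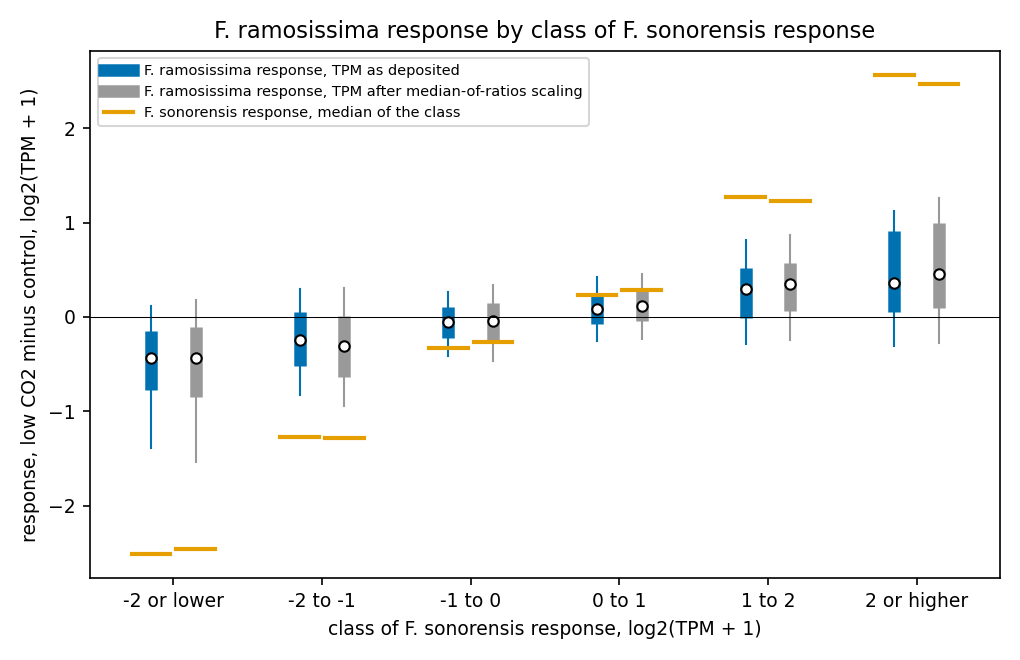
Response of F. ramosissima (low CO2 minus control, log2(TPM + 1)) for genes grouped by their response in F. sonorensis, from -2 or lower to 2 or higher, with TPM as deposited (blue) and after median-of-ratios scaling (grey). White points are medians over genes, bars span the middle 50% and lines the middle 80% of genes, and the orange lines give the median F. sonorensis response of each class, from -2.51 to 2.57 on the deposited values, whose distance from 0 is set by the classes. The F. ramosissima medians run from -0.43 to 0.36 across the same classes.

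A difference was shown for only a part of the genes that moved in F. sonorensis. Of the 517 that rose there, the difference passed in 53 (10.3%), the 95% interval lay within 2-fold in 136, and neither held in 328. Of the 1739 that fell there, it passed in 203 (11.7%), the interval lay within 2-fold in 226, and neither held in 1310. Over all 10473 genes tested the difference passed in 276, the interval lay within 2-fold in 5109 (48.8%), and 5088 did neither. The difference contains the F. sonorensis response by which the 517 and 1739 genes were picked. A higher share of passing genes among them is therefore built in and is no result. The median SE of a difference was 0.308.

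Levels of the 2 species were also set side by side within each condition, which carries any difference in reference sequence between them. For the 213 genes with a positive difference, 72.8% had a smaller gap between the species at low CO2 than in control air, against 42.9% of the 63 with a negative difference and 60.6% of all genes tested. After median-of-ratios scaling the shares were 38.1% of its own 84 positive, 57.9% of its own 76 negative differences and 47.3% of all genes, so that no convergence or divergence of the species can be read from them.

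The same genes were followed in the libraries of the C3 and the C4 species, which the comparison did not use. In F. robusta, 808 of 9389 genes rose (8.61%) and 4320 fell (46%). Of the genes with a positive difference 183 were measured there, of which 19 rose (10.4%) and 87 fell (47.5%), shares close to those of all genes. Of the genes with a negative difference 52 were measured, of which 13 rose (25%) and 16 fell (30.8%). After median-of-ratios scaling of F. robusta, 22.4% of the 183 rose and 35.5% fell, 34.6% of the 52 rose and 19.2% fell, and over all genes 19.2% rose and 21.5% fell.

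In F. trinervia, 12 of 9474 genes rose (0.127%) and 115 fell (1.21%). None of the 185 measured genes with a positive difference rose there and 8 fell (4.32%), with a median response of -0.37 against -0.13 over all genes. Of the 54 measured genes with a negative difference none rose and 1 fell. In control air 27.2% of the 169 genes with a positive difference that were measured in both species were at least 2-fold higher in F. trinervia than in F. robusta and 24.3% at least 2-fold lower. The corresponding shares were 31.9% and 23.4% of the 47 genes with a negative difference and 17.1% and 16.4% of all 8863 genes. No test was made of these lists.

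**Figure D4:**
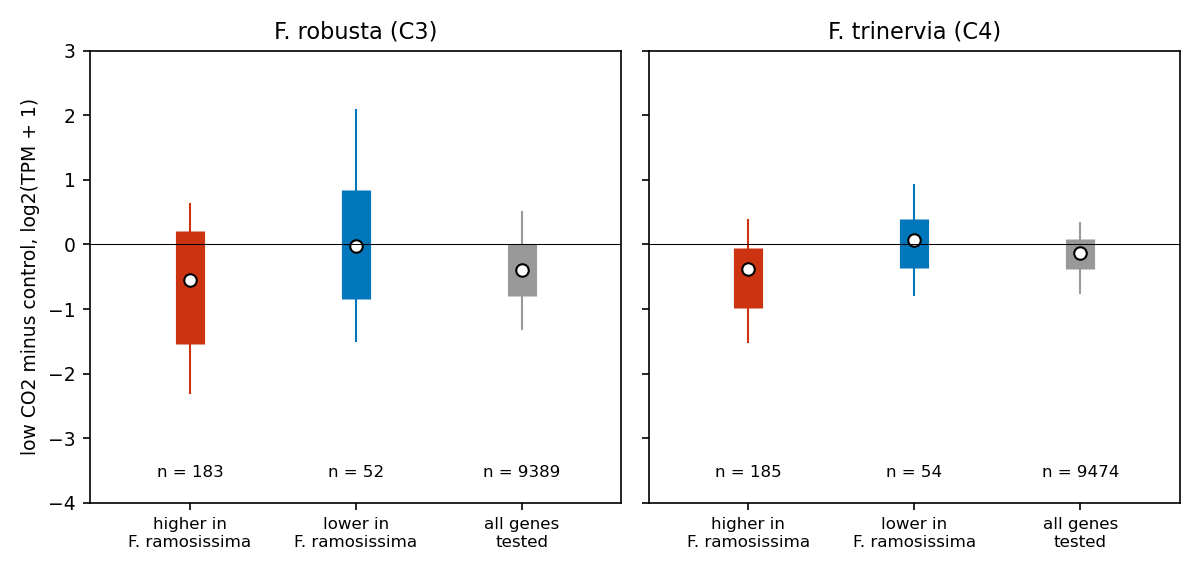
Response to low CO2 (low CO2 minus control, log2(TPM + 1)) in F. robusta (left) and F. trinervia (right) of the genes whose response was higher (red) or lower (blue) in F. ramosissima than in F. sonorensis and of all genes tested (grey). Points are medians over genes, bars span the middle 50% and lines the middle 80% of genes, and in F. robusta the medians were -0.55, -0.03 and -0.39.

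The levels of the 4 genes given by identifier were also read in these 2 species. Gene05621 had 11.3, 10.5 and 24.6 TPM in F. robusta at low CO2 and 16.8, 18.2 and 22.4 TPM in F. robusta in control air, and 11.7, 27.9 and 10.3 TPM in F. trinervia at low CO2 and 17.6, 35.3 and 18.6 TPM in F. trinervia in control air. Both species thus stood near the F. ramosissima level, with overlapping conditions. Gene00090 had 14.01, 123 and 110 TPM in F. robusta at low CO2 and 3.39, 3.01 and 9.76 TPM in F. robusta in control air, opposite in direction to F. sonorensis, and all 6 F. trinervia libraries listed it at 0. Gene01199 had 301, 217 and 330 TPM in F. robusta at low CO2 and 74.5, 118 and 29.98 TPM in F. robusta in control air, the direction of F. sonorensis, and between 0.26 and 1.14 TPM in F. trinervia. Gene04344 had 1.65, 2.49 and 1.91 TPM in F. robusta at low CO2 and 6.14, 2.49 and 4.77 TPM in F. robusta in control air, and 6.8, 8.69 and 5.96 TPM in F. trinervia at low CO2 and 4.44, 7.22 and 6.54 TPM in F. trinervia in control air, all below its level in the F. ramosissima controls.

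**Figure D5:**
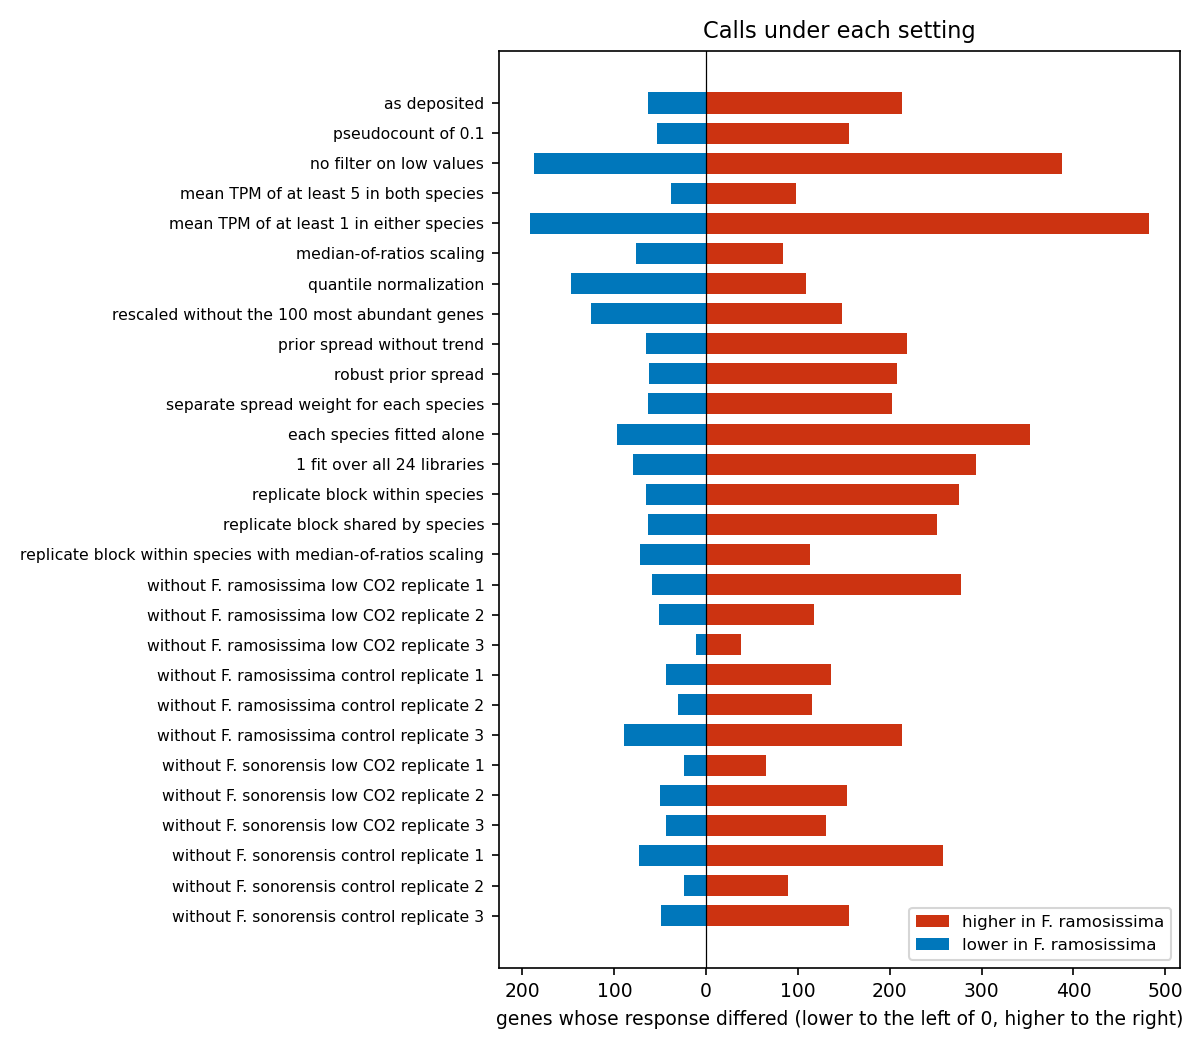
Number of genes whose response was higher (red, to the right of 0) or lower (blue, to the left of 0) in F. ramosissima than in F. sonorensis under each way of processing the values. Other filters on low values also change the number of genes tested. The 213 higher and 63 lower genes of the deposited values stand at the top, median-of-ratios scaling gives 84 and 76, and the shortest bars are those without F. ramosissima low CO2 replicate 3, with 38 and 11.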

How the data were processed

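Transcript abundance was measured by RNA-seq in 24 leaf libraries, of which the 12 of F. ramosissima and F. sonorensis entered the comparison and the others served as a description. The authors deposited TPM as a single table with 29562 rows, and those of the 12 libraries summed to between 857693 and 925049. The submitters' processing notes name RSEM, with no version or role, and edgeR, with no version. The part of edgeR in the deposited TPM was not checked. The aligner, the reference sequences and the rule that joins genes of several species in a row were not given in the sources used here. Sequencing depth cannot be read from TPM and is unknown, and all errors come from the spread between libraries.

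Groups and replicate numbers came from the labels. Genes with a mean of at least 1 TPM over the 6 libraries of each species were kept, and 233 of them had a lower species mean between 1 and 1.1 TPM, with a median difference of 0.13 and 11 calls, while 258 genes just under the limit, between 0.9 and 1 TPM, had a median difference of 0.07 and were not tested. On log2(TPM + 1) a model of 4 group means was fitted by limma 3.58.1 in R 4.3.3 (eBayes with a trend), and the contrast was the F. ramosissima response minus the F. sonorensis response. Benjamini-Hochberg adjustment ran over all 10473 genes, with a threshold of 0.05. Spearman correlations between libraries of a group were 0.932 to 0.987, and at most 0.162% of values at 10 TPM or more were identical, so every library was kept as a separate one. Shares per library were tested by exact two-sided permutation, and plots were drawn with matplotlib 3.10.9. The functions were checked on simulated data.

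Genes given by identifier, 2 in each direction, had the largest differences among the genes that passed on the deposited values, after median-of-ratios scaling and with each library left out, with all 9 differences between single libraries of a species apart (36 positive and 11 negative genes). The next 8 in each direction, the genes with opposite responses, the most abundant genes and those with the largest shared responses are given without identifier, the last 3 kinds chosen after their values were seen. The comparison, the rule and the alternatives were chosen with earlier results of these data known. The alternatives were a pseudocount of 0.1, other filters on low values, other scalings, other models of the spread, a fit over all 24 libraries, the replicate number as a block, and leaving out each library in turn.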

Additional observations from a re-analysis of the deposited data

Results flagged for a closer look

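The response to low CO2 differed between F. ramosissima and F. sonorensis in 276 genes by a test of the difference itself. Among the genes given by identifier the difference of response was 5.57 for Gene05621 and 4.88 for Gene00090, both higher in F. ramosissima, and -5.79 for Gene01199 and -4.23 for Gene04344, both lower in F. ramosissima. Gene00090 averaged 1.52 TPM in F. ramosissima at low CO2 and 0.55 TPM in F. ramosissima in control air, so it reached the limit of 1 TPM there only through the low CO2 libraries, and a fall in F. ramosissima could not have been measured.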

How the results depend on the processing

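Passing after median-of-ratios scaling and with each library left out was a condition for choosing Gene05621, Gene00090, Gene01199 and Gene04344, so their stability there is no result. Their differences also passed with the same sign in the other alternatives that tested them, and over all alternatives the adjusted p lay between 1.64e-07 and 0.00132, 0.00302 and 0.0434, 6.31e-07 and 8.49e-04, and 9.69e-05 and 0.0249. The counts moved. Other filters on low values also changed the number of genes tested, so counts under them are not directly comparable. Genes with a difference, 276 of 10473 tested, numbered 574 of 26802 without a filter on low values. They numbered 674 of 19862 with at least 1 TPM in either species and 136 of 5817 with at least 5 TPM in both. After median-of-ratios scaling they numbered 160, and with each species fitted alone 450. The 213 positive differences became 387, 482, 98, 84 and 353 in the same settings, 109 after quantile normalization and 113 with a replicate block within species and median-of-ratios scaling. The 63 negative differences became 187 without a filter, 192 in either species, 38 at 5 TPM, 97 with each species fitted alone, 147 after quantile normalization and 125 when rescaled without the 100 most abundant genes. Leaving out 1 library gave 49 to 336 genes, 38 to 277 positive and 11 to 89 negative. The median difference of 0.17 was -0.00450 after median-of-ratios scaling with or without the block, -0.0337 after quantile normalization and 0.00903 without the 100 most abundant genes. Genes that passed in F. ramosissima, 81 in all, numbered 504 without a filter, 388 in either species, 145 after median-of-ratios scaling, 49 with a spread weight for each species, 33 with each species fitted alone, 125 in 1 fit over all 24 libraries, and 6 to 107 with 1 library left out. For F. sonorensis the 2256 of 10473 genes became 1419 of 5817 at 5 TPM and 1247 to 2537 with 1 library left out. The share of genes with a smaller gap between the species at low CO2, 65.9% of the 276, was 57.6% with a pseudocount of 0.1, 56.6% at 5 TPM, 47.5% after median-of-ratios scaling, 53.1% after quantile normalization, 54.2% without the 100 most abundant genes and 45.9% with the block and median-of-ratios scaling. The cause of these moves was not tested.

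The main fit did not pair the libraries by replicate number. The deviations of same-numbered libraries correlated at 0.320, 0.487 and 0.0806 in F. ramosissima and at -0.00278, -0.216 and -0.0583 in F. sonorensis. In F. ramosissima every library correlated best with its own number, and in F. sonorensis none did. With 3 libraries a group such a match can also arise without pairing, and the labels name no pairs. Whether libraries of F. ramosissima were paired was not tested. A replicate block within species gave 341 genes (275 positive, 66 negative), a block shared by the species 314 (251 and 63), and the block within species with median-of-ratios scaling 185 (113 and 72). With 3 libraries a group and a median SE of 0.308, 267 of the 276 differences detected were at least 2-fold, and the depth behind them is unknown.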
